A study of Prunus persica with 2 samples.

Results

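The degradome list of peach fruit names 379 transcripts in 469 pairs of a miRNA and a cleaved transcript, and 56 of these transcripts were described here: those listed with a known miRNA that carries a number of 1000 or more and with 2 or more raw degradome reads at the cleavage site. These 56 transcripts form 56 pairs with 37 miRNAs and were chosen on the raw reads, so their read numbers are a description and were not tested. A further 5 transcripts were left out by name, and 4 of them have 6 such pairs with 2 or more reads. Both libraries came from the fruit of 'Troubador', a peach cultivar with yellow flesh, sampled on 5 dates counted in days after full bloom, the first at 35, then at 55, 75 and 90, and the last at 105. The stages were mixed, so each assay has 1 library, no replicate and no control, and each transcript has 1 value for fruit development as a whole. The tables hold miRNAs and cleaved transcripts, from which the tissue could not be checked against marker genes.

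In plants, a miRNA guides an ARGONAUTE protein to a transcript with which it pairs over most of its length, and the protein cuts the transcript opposite the middle of the miRNA. The 3' piece keeps a 5' phosphate, which lets degradome sequencing capture its first nucleotide. A pile of reads starting at a single nucleotide is therefore read as a possible cut. Below, a cut is the cleavage site that the list names, and whether the miRNA cleaved the transcript there was not tested. Low numbers in the miRNA registry mostly belong to old families shared by many land plants, and higher numbers were given later, many of them to miRNAs found in 1 species or a few related ones. The 37 miRNAs were named after miRNAs of other plants and algae: 9 after rice, 7 each after soybean and Medicago truncatula, 5 after the moss Physcomitrella patens, and the others after 7 further species. The peach sequences were 2 to 5 changes (median 4) away from the miRNA they were named after, counted as substitutions, insertions and deletions, and 2 of them, miR1030 and miR2911, were at 2 changes.

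The mature sequences of the miRNAs on which the read numbers and the listed p-values turn are shown first, 5′ to 3′, with the seed (bases 2 to 8) in capitals.
miR1509: uUAUAUAAugaaaucacggccg
miR5373: uUCUUGUUguagaugauggu
miR5161: gCUGGAUCaagggguuua
miR1223: uUGAGAGUaauggacaccucu
miR5266: cGGGGGACggacuggggg
miR2930: uUCUCUCUcucucucccgucggcc
miR5371: uCUUCAGUgacuaaauucagc
miR1030: uCUGCAUUugcaccugcaccu
The 37 miRNAs carry 36 distinct seeds. The seed AGAAUUG is the one carried by more than 1 miRNA, and the rest of these sequences differs.
miR1023: aAGAAUUGaaaagaaugcaug
miR5175: aAGAAUUGgaggaaggagaga
miR1509, first described in soybean, shares a stretch of 10 nt in its 3' part, in capitals here, with the soybean miRNA it was named after, while the seed differs.
peach miR1509: uuauauaauGAAAUCACGGccg
soybean miR1509a: uuaaucaagGAAAUCACGGucg
miR5266 and miR2911 carry different names but share 16 nt, in capitals, offset so that their seeds are not the same. miR2911 is known in other plants as a fragment of the large ribosomal RNA.
miR5266: CGGGGGACGGACUGGGgg
miR2911: gcCGGGGGACGGACUGGGa

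The transcript with the most reads was ppa020475m, listed with miR1509. Its site had 334 raw reads (exact 95% Poisson interval 299 to 372), which is 55.4% (exact Clopper-Pearson 95% interval 51.3 to 59.4%) of the 603 raw reads of the 56 transcripts, 6.42 times the count of the next transcript and 27.8 times that of the third. Among the 393 distinct sites of the whole list it ranked 5 by raw reads. Such intervals hold for counting error alone, because copies made in amplification were not told apart. The cut lies at nucleotide 152 of the transcript, inside an aligned stretch from 140 to 161, and it was the single highest position of the transcript (category 0 in CleaveLand, the program that made the list). The site reads, with the nucleotides on both sides of the cut in capitals:
ppa020475m: cggccgucauuUCauuguauaa
Of its 22 nt, 20 pair with miR1509, 1 forms a G-U wobble at miRNA position 6 and 1 is mismatched at position 15, positions counted from the 5' end of the miRNA. The alignment score, a penalty that runs from 0 (every base paired) to 4 among the listed pairs, is 2 here. CleaveLand gave the pair a p-value of 0.0036, which is 0.125 after Benjamini-Hochberg adjustment over all 469 listed pairs. miR1509 itself had 32 small RNA reads (Poisson interval 21.9 to 45.2). The annotation tables used here give no function for ppa020475m. Outside it, the other 55 transcripts had 269 raw reads.

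miR5373 was listed with 4 of the transcripts, and those with its closest pairings are annotated as water transporters, proteins that let water cross membranes. ppa009506m had 52 raw reads (Poisson interval 38.8 to 68.2) at nucleotide 902 with an alignment score of 0.5, the lowest score of the 56 transcripts, and its site ranked 18 in the list. ppa008510m had 5 raw reads (1.62 to 11.7) at nucleotide 866 with a score of 1.5. Both carry the GO terms water transmembrane transporter activity and fluid transport, and ppa008510m also response to osmotic stress. The reads at both sites are above the median of the occupied positions of the transcript without being the highest (category 2), and the listed p-values are 0.32 and 0.282. The other transcripts of miR5373, ppa009540m at nucleotide 857 and ppa009689m at nucleotide 774, had 3 raw reads and a score of 3.5 each, and no function is given for them in the tables used. A further 3 transcripts listed with miR5373 had 1 read and a score of 4. The miRNA itself was read 1 time in the small RNA library, a count with a Poisson interval of 0.0253 to 5.57.

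**Figure D1:**
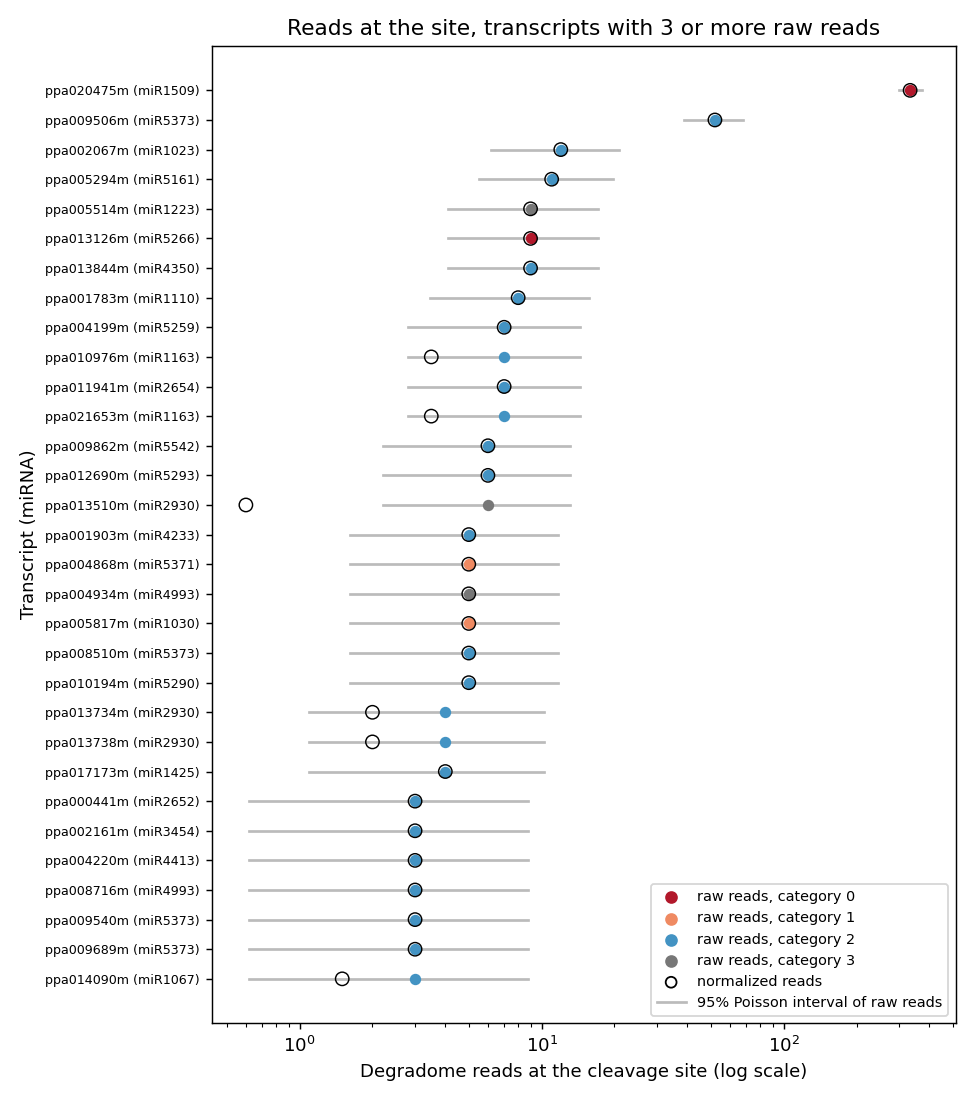
Degradome reads at the cleavage site (x axis, log scale) of the 31 transcripts with 3 or more raw reads, each with its miRNA; filled points are raw reads coloured by CleaveLand category, open circles normalized reads and grey lines the 95% Poisson interval of the raw reads. ppa020475m with 334 reads and ppa009506m with 52 stand apart, the others had 12 reads or fewer, and open circles left of the points mark reads that were divided among several places.

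After these, reads per transcript were few. ppa002067m, listed with miR1023, had 12 raw reads (6.2 to 21) at nucleotide 1837 with a score of 4. ppa005294m, annotated with UDP-glucosyltransferase activity (the transfer of glucose onto other molecules), had 11 raw reads (5.49 to 19.7) at nucleotide 93 with miR5161 and a score of 2.5. Their intervals overlap, so the order of these transcripts is within counting error. Both were of category 2, with listed p-values of 0.686 and 0.241.

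3 transcripts had 9 raw reads each (4.12 to 17.1). ppa005514m with miR1223 was listed at nucleotide 987 and ppa013126m with miR5266 at nucleotide 111, both with a score of 4. ppa013844m with miR4350 was listed at nucleotide 468 with a score of 3.5. ppa013126m carries the GO terms structural molecule activity, ribonucleoprotein complex biogenesis and plastid envelope, and beside ppa020475m it was the other category 0 transcript. Next came ppa001783m with miR1110, with 8 raw reads at nucleotide 1364 and a score of 3.5. With 7 reads each followed ppa004199m with miR5259, ppa011941m with miR2654, and ppa010976m and ppa021653m with miR1163. ppa004199m is annotated as an oxidoreductase that acts on paired donors with a reduced flavin, a class that adds oxygen to its substrate. 4 of the 56 sites had 10 or more reads, beside 75 of all 469 listed pairs. Among pairs with 2 or more reads, 46 of 94 of known miRNAs under 1000 and 23 of 91 of predicted miRNAs did. The transcripts were chosen on these reads, so the counts only describe them. The 2 highest of the 56 sites held 386 reads or 64% of the total, and the other 54 transcripts held 217 reads.

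CleaveLand's p-value, computed from the category and the alignment, was under 0.05 for 6 of the 56 transcripts (10.7%, Clopper-Pearson interval 4.04 to 21.9%), beside 18.6% of all 469 listed pairs. Since the category uses the same reads as the choice of the transcripts, nothing was read from this share. After Benjamini-Hochberg adjustment over the 469 pairs 0 of them, and 0 pairs of the whole list, had an adjusted p under 0.05, and the lowest adjusted value was 0.125. Besides ppa020475m the 6 were ppa004868m, ppa005514m, ppa013126m, ppa013510m and ppa005817m. ppa004868m, listed with miR5371 at a CleaveLand p-value of 0.00456, had 5 raw reads at nucleotide 531, a score of 3 and category 1 (a highest position tied with others). It is placed in valine, leucine and isoleucine biosynthesis and in pyruvate metabolism, with the GO term leucine metabolic process. The CleaveLand p-values of ppa005514m and ppa013126m were 0.0148 and 0.016. ppa013510m, annotated with the response to hexose, had 6 raw reads at nucleotide 631 with miR2930, a score of 3 and a CleaveLand p-value of 0.019. ppa005817m had 5 raw reads at nucleotide 1639 with miR1030, a score of 4, category 1 and a CleaveLand p-value of 0.0246. ppa005514m and ppa013510m were of category 3, that is, their sites were at or below the median read number of the occupied positions of their transcripts.

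Normalized reads were below raw reads for 14 of the 56 transcripts (25%, interval 14.4 to 38.4%; 21.3% of all listed pairs), 379 raw reads becoming 350.3, and the values are as if a read matching several places had been divided among them. The 7 raw reads of ppa010976m at nucleotide 427 and of ppa021653m at nucleotide 423, both with miR1163, are 3.5 normalized reads each. The 4 transcripts of miR1097, ppa004490m, ppa015414m, ppa018199m and ppa018278m, had 2 raw and 0.5 normalized reads each, which sum to 2. Likewise ppa013734m and ppa013738m with miR2930, both cut at nucleotide 34, had 4 raw and 2 normalized reads each, and ppa011386m and ppa011484m with miR5175 had 2 raw and 1 normalized read each. Such transcripts are uncertain, since the same reads may be counted for each of them. miR2930 is a run of alternating U and C in its 5' part, and with it ppa013510m had 6 raw but 0.6 normalized reads and ppa014319m 2 raw but 0.2. For ppa020475m the change was from 334 to 333, and for ppa009506m there was none.

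Among the 56 transcripts 15 have a KEGG pathway or a GO term in the annotation tables used, and 41 have none there; the copies of these tables are shortened, so the 41 may have functions. Protein descriptions were found for 0 of the 56 in the same copies. Beyond the transcripts named above, genes of RNA handling and translation were ppa000441m with miR2652 (3 reads at nucleotide 2562, placed in RNA transport and mRNA surveillance), ppa002161m with miR3454 (3 reads at nucleotide 131, placed in ribosome biogenesis and also in the KEGG maps of the fly circadian rhythm and Hedgehog signaling) and ppa001802m with miR5543 (2 reads, translation factor activity). Of genes linked to chromatin and transcription, ppa000179m with miR1320 (2 reads) carries the terms histone methylation and lysine N-methyltransferase activity, which describe enzymes that methylate histones. ppa004934m with miR4993 (5 reads at nucleotide 381) carries gene silencing and a hydrolase activity on ether bonds, and is placed in cysteine and methionine metabolism. ppa020272m with miR4993 (2 reads) is annotated as a nucleic acid binding transcription factor. Of metabolism and transport, ppa007605m with miR2920 (2 reads at nucleotide 165) is placed in phenylpropanoid biosynthesis, the route to lignin and flavonoid precursors. ppb024948m with miR1511 (2 reads at nucleotide 632) carries voltage-gated potassium channel activity. Each group holds a few transcripts with single-digit reads, apart from ppa009506m and ppa005294m, and no group was tested for enrichment.

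The site of ppb024948m is the other one for which the pairing could be read. Its score is the highest among the listed pairs, a value that 35 of the 56 pairs share. Capitals mark the seed in the miRNA and the nucleotides on both sides of the cut in the site.
miR1511: aCCUGGCUcugauaccauaa
ppb024948m: ucaugguauCAgagcaaggc
17 of its 20 nt pair and positions 1, 5 and 19 of the miRNA are mismatched, which gives the listed score of 4. The pair had 2 reads and a CleaveLand p-value of 0.175, while miR1511 had 325 small RNA reads against the 32 of miR1509.

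The miRNAs of these transcripts were rare in the small RNA library. Their median was 1 read (range 1 to 739), and together they had 1219 of the 2308209 reads of the 886 listed miRNA sequences. 20 of the 37 were read 1 time (54.1%, interval 36.9 to 70.5%), and 31 of the 56 pairs, with 174 degradome reads, belong to such miRNAs. Beside this, among pairs with 2 or more raw reads, 5 of 32 known miRNAs numbered under 1000 (15.6%) and 2 of 35 predicted miRNAs (5.71%) were read 1 time, with medians of 83 and 48 reads. Known and predicted miRNAs entered the study's list by different steps, so these sets are not alike. Over all 176 miRNAs of the list the share was 34.7%, with a median of 5.5 reads. For the 49 miRNAs numbered 1000 upward in pairs with 1 degradome read it was 65.3%, with a median of 1. 8 of the 37, with 12 transcripts, had 10 or more reads. The most read miRNAs did not have the most degradome reads: miR2911 with 739 small RNA reads was listed with ppa004713m, which had 2 raw reads and a score of 3.5, and miR1511 likewise with 2 raw reads. Over the 37 miRNAs, which share both libraries, Spearman's rho between small RNA reads and summed degradome reads was 0.04, given as a description. The sums hold only pairs chosen for 2 or more raw reads, and 20 of the 37 miRNAs are tied at 1 small RNA read. Nothing was therefore read from this value. By length 10 of the 37 had 21 nt (27%, 13.8 to 44.1%), the range being 18 to 24 nt, and 17 began with U (46%, 29.5 to 63.1%). Over all 176 miRNAs of the list, 54.5% had 21 nt and 52.3% began with U. The shares were 71.9% and 71.9% for the miRNAs under 1000 and 65.7% and 48.6% for the predicted ones, both with 2 or more degradome reads.

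**Figure D2:**
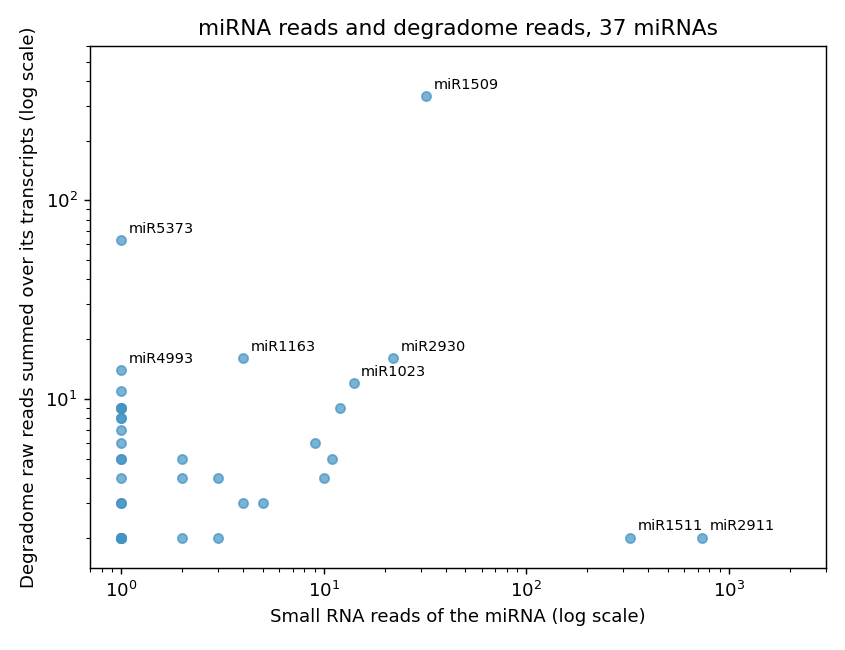
Small RNA reads of each of the 37 miRNAs (x axis, log scale) against the degradome raw reads summed over its transcripts (y axis, log scale), 1 point per miRNA, from 1 library each. miR1509 (32 and 334 reads) and miR5373 (1 and 63 reads) are highest, while miR2911 and miR1511, with the most small RNA reads, have 2 degradome reads each.

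28 of the 37 miRNAs were listed with 1 of the transcripts and 4 with 2 of them. miR4993 had the most, 5 transcripts with 14 raw reads in all, out of 18 pairs in which the list names it. miR1097, miR2930 and miR5373 had 4 each, with 8, 16 and 63 raw reads, and miR1163 had 3 with 16. The 63 reads of miR5373 rest on ppa009506m.

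An alignment score of 2 or less was found for 3 of the 56 pairs (5.36%, 1.12 to 14.9%), namely ppa009506m, ppa008510m and ppa020475m. Over all listed pairs the share was 13.9%, which lies inside that interval. The score does not use the reads, and the list holds no score above 4. Among pairs with 2 or more reads, 19 of 94 of the known miRNAs under 1000 (20.2%, 12.6 to 29.8%) and 23 of 91 of the predicted miRNAs (25.3%, 16.7 to 35.5%) scored 2 or less. The score of 4 was held by 35 of the 56 (62.5%, 48.5 to 75.1%), beside 52.7% of all listed pairs, which lies inside that interval, and 29.8% and 50.5% in those sets. The median score was 4 here and over the whole list, 3 for the miRNAs under 1000 and 4 for the predicted ones. These shares stand side by side without a test, because pairs of 1 miRNA or 1 site are not independent. The intervals treat the pairs as independent, and the 56 pairs are part of the whole list. Whether a share lies inside an interval therefore decides nothing.

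Category 0 was given to 2 of the 56 pairs (3.57%, 0.435 to 12.3%), ppa020475m and ppa013126m, beside 14.5% of all listed pairs, 44.7% of the pairs of miRNAs under 1000 and 24.2% of those of predicted miRNAs with 2 or more reads. Most pairs, 43 of 56 (76.8%, 63.6 to 87%), were of category 2, 2 of category 1 and 9 of category 3 (16.1%, 7.62 to 28.3%). Category 2 was given to 30.9% of all listed pairs and category 3 to 4.05%, but that list also holds 222 pairs of category 4. With 2 or more reads, the shares of categories 2 and 3 were 51.1% and 2.13% for miRNAs under 1000. For predicted miRNAs they were 55% and 8.79%. In these same comparison sets the list's p was under 0.05 for 46.8% and 38.5% of the pairs, and the median raw reads were 8.5 and 5, against 3 here. Category, p and reads come from the same counts as the choice of the transcripts, so these values only describe the set.

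**Figure D3:**
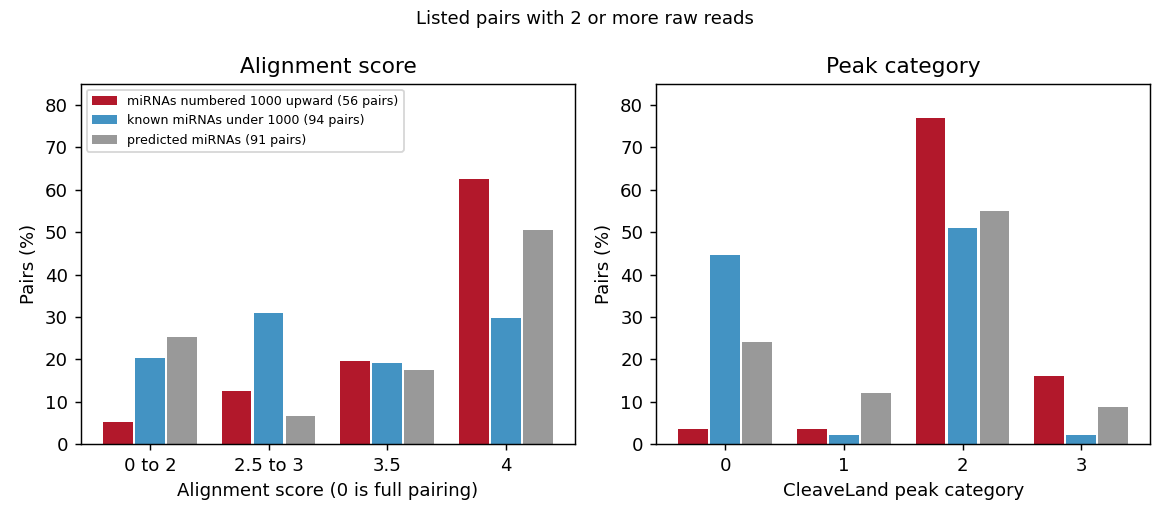
Share of pairs (y axis, percent) by alignment score (left, 0 is full pairing) and by CleaveLand category (right) for pairs with 2 or more raw reads: red, miRNAs numbered 1000 upward (56 pairs); blue, known miRNAs under 1000 (94); grey, predicted miRNAs (91). The red bars are highest at score 4 (62.5%) and category 2 (76.8%), and at category 0 they reach 3.57%, below the blue bar at 44.7%.

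By the count from the end of the aligned stretch, the cut lay opposite miRNA position 10 in 45 of the 56 pairs (80.4%, 67.6 to 89.8%), opposite 9 in 5 and opposite 11 in 6. Position 10 was found in 90.2% of all listed pairs, and, with 2 or more reads, in 87.2% of those of miRNAs under 1000 and 93.4% of those of predicted miRNAs, without a test. Every one of the 469 listed pairs was at position 9 (21), 10 (423) or 11 (25). The list thus holds no cut at another position, and nothing about where cutting occurs was read from these shares. This count does not allow for gaps, and all 25 pairs whose aligned stretch is as long as the miRNA were at 10. In the other 31 pairs the stretch was shorter (18) or longer (13) than the miRNA. All 4 transcripts of miR1097 were at 11, and ppa004868m and ppa004199m were at 9. Sites ranged from nucleotide 22 of ppa010194m to nucleotide 3497 of ppa000372m with a median of 627. 16 sites lay before nucleotide 200 and 14 beyond nucleotide 1000. The lengths of the transcripts and their coding regions were not used here, so the sites were not placed in UTRs or coding sequence. At 0 of the 56 sites was a miRNA numbered under 1000 or a predicted miRNA listed within 3 nt. Over all 151 listed pairs of miRNAs numbered 1000 upward, 7 had such a neighbour, 1 of them among the 89 pairs with 1 read. The remaining ones belong to the transcripts left out by name, so the 0 follows from the choice and nothing was read from it. Of the 56 transcripts 2 had a further listed pair elsewhere, each with 1 read: ppa001903m at nucleotide 51 with m0240 and ppb024948m at nucleotide 360 with m0269.

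At the lower edge of the set, 25 transcripts had exactly 2 raw reads, and 7 had 3. Of the 25, 22 had a score of 4, the lowest score was 3, and the lowest listed p was 0.0719, shared by the 4 transcripts of miR1097. Just outside, 89 transcripts in 89 pairs with 49 miRNAs had 1 raw read, and 0 of these transcripts were among the 56. Their lowest listed p was 0.248, and 13 of the 89 had a score of 2 or less. The Poisson intervals of 1 read (0.0253 to 5.57) and 2 reads (0.242 to 7.22) overlap.

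Most of the close pairings just outside belong to miR5213, which in Medicago truncatula is known for transcripts of disease resistance proteins.
miR5213: uUGCGUGUgucuucaccucua
It was listed with 10 transcripts, each with 1 raw and 0.1 normalized reads that sum to 1, as if a single read had matched all of them. The score was 0 for ppa024963m, cut at nucleotide 74, and 2 for ppa017612m, and 8 had a score of 1: ppa000596m, ppa015956m, ppa017041m, ppa018622m, ppa019076m, ppa020435m, ppa020772m and ppa023909m. Their sites lay between nucleotides 74 and 146, and miR5213 had 2 small RNA reads. Also at 1 read were ppa000477m and ppa025473m with miR3623, both cut at nucleotide 277 with a score of 2 and 0.5 normalized reads, and ppa015436m with miR4233 at nucleotide 601 with a score of 2. ppa005720m and ppa014111m, listed with miR5077, had scores of 4, and this miRNA had 3027 small RNA reads.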

How the data were processed

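Fruit of 'Troubador' gave 1 small RNA and 1 degradome library, without replicates, so no difference was tested. Deposited for the small RNA library are raw counts of miRNA sequences that the authors aligned to plant miRNAs of miRBase. The deposited degradome list gives raw counts of reads at each cut, the authors' normalized reads are a signal, the alignment score comes from targetfinder, and the category and p-value are those the authors obtained with CleaveLand 3.0. For the genome release, the mapping thresholds and the depth of the degradome library, the sources used here give nothing.

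Both tables were joined by miRNA name. In 11 list cells the start and end of the alignment had become a calendar date and were read back; 1 of them belongs to the 56 transcripts (ppa010194m). The position of the cut is the end of the stretch minus the site plus 1. The pairing of the sites of ppa020475m and ppb024948m was scored with 1 per mismatch and 0.5 per G-U wobble, doubled at miRNA positions 2 to 13, which gave the listed scores. Homolog names and sequences, sites, KEGG pathways and GO terms were read from the study's supplementary tables. Transcripts named singly are those listed with miR5213, the 10 with the most raw reads, those with a listed p under 0.05, a score of 2 or less or an annotation, ppa020475m, and the extremes at the edge; others named as sharing reads, lying at the extremes of the sites or having a further pair were chosen after their values were seen. The members, lists and alternatives were chosen with earlier results of these data known. Counts have exact Poisson and shares exact Clopper-Pearson intervals at the 95% level. The choice of the transcripts and the coverage of the intervals were tested on simulated data. Counts of changes and shared stretches between sequences were tested on short examples, and the other steps were not tested in this way. Software was matplotlib 3.10.9, SciPy 1.17.1, NumPy 2.4.6 and pandas 2.3.3 under Python 3.11.15. The RefSeq gene table names none of these transcripts and was not used here.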

Additional observations from a re-analysis of the deposited data

How the results depend on the processing

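The results were recomputed under 13 alternatives, 156 values in all, of which 117 stayed close and 39 moved. Some alternatives could change nothing in this set: merging sites within 3 nt, leaving out transcripts with another miRNA within 3 nt, and leaving out miR5213. Their values are among the 117 by construction and say nothing about stability. A share counted as moved when it left the 95% counting interval of the share reported, and any other value when it changed by over 1.5 times. With no minimum of raw reads there were 145 transcripts and 145 pairs, a median of 1 read, 60.4% of reads at the 5 highest sites (69.3% in the report), 16 pairs with a score of 2 or less, 125 at position 10, 10 transcripts of miR5213 and 43 miRNAs with 1 small RNA read. With a minimum of 3 reads the values were 31 transcripts and pairs, a median of 5, 75.6% and 28 at position 10, and with a minimum of 5 reads 21, 7, 80.4% and 19, with 11 miRNAs read 1 time. With a score of 3 or less, 10 transcripts and pairs were left, with a median of 6.5 reads, 94.7% of reads at the 5 highest sites, 3 pairs with a listed p under 0.05, 1 of category 0, 9 at position 10 and 4 miRNAs read 1 time. With miRNAs of 5 or more small RNA reads, 14 transcripts and pairs with 393 raw reads were left, 93.4% of them at the 5 highest sites, with 1 score of 2 or less, 3 listed p under 0.05, 13 at position 10 and 0 miRNAs read 1 time. Putting the 5 left-out transcripts back gave 4 pairs of category 0. Without ppa020475m, an alternative chosen after seeing the data, 269 raw reads, 34.6% at the 5 highest sites and 1 pair of category 0 were left. In each case the smaller or larger number of pairs follows from the alternative's own construction. Deciding membership by normalized reads left 47 transcripts, leaving out low-complexity miRNAs 49, and counting transcripts that share reads 1 time, chosen after seeing the data, 50, and under these no value moved. No paired analysis was possible because each assay has 1 library. Most sites hold so few reads that their order was not detectable at this depth.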
